A study of Mus musculus with 72 samples.

Results

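Fgf5, Otx2, Gata4, Gata6, T, Eomes, Sox17, Cdx2 and Pax6 are early lineage specifier genes, whose products mark the first cell types that an embryonic stem cell (ESC) can give rise to. They were taken as a named list, with no cut on a measured value but with earlier results of these data known. They are 9 of the 22367 protein-coding genes that GENCODE vM1 places on the assembled chromosomes of the mouse genome build mm9. For each gene the ChIP-seq peaks overlapping the gene body or the 50 kb on either side were examined, in cells with and without the nucleosome-binding proteins HMGN1 and HMGN2. The gene bodies lie on chromosome 5 at 98683203 to 98706049 for Fgf5 and 148112381 to 148118846 for Cdx2, on chromosome 14 at 49277354 to 49287319 for Otx2 and 63817759 to 63890529 for Gata4, on chromosome 18 at 11052508 to 11085633 for Gata6, on chromosome 17 at 8627288 to 8635361 for T, on chromosome 9 at 118387330 to 118395250 for Eomes, on chromosome 1 at 4481009 to 4486494 for Sox17 and on chromosome 2 at 105509053 to 105543317 for Pax6. The windows were 105 kb (Sox17) to 173 kb (Gata4) long. Those of Fgf5, Otx2, Gata6 and Sox17 held no other protein-coding gene, whereas Fdft1 and Neil2 shared the window of Gata4, Sft2d1 that of T, Golga4 that of Eomes, Elp4 that of Pax6, and Pdx1, Prhoxnb and Flt3 that of Cdx2.

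In ESCs the pluripotency factors OCT4, SOX2 and NANOG bind promoters and distal enhancers, often side by side, and keep the self-renewal program active. Many lineage specifiers carry binding sites of the same factors while their transcription in ESCs is low, and they are switched on when cells leave the pluripotent state. Fgf5, a secreted growth factor, and OTX2, a homeodomain factor, mark the epiblast as it leaves the ground state. T (Brachyury) and EOMES are T-box factors of the primitive streak and mesendoderm. GATA4, GATA6 and SOX17 drive endoderm, CDX2 the trophectoderm, and PAX6 the neuroectoderm and the eye. Acetylation of histone H3 at lysine 27 (H3K27ac) marks active enhancers and promoters, and trimethylation of the same residue (H3K27me3) is the Polycomb mark that covers many silent lineage genes.

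The study compared wild-type cells (WT, Hmgn1+/+n2+/+) with double knockout cells (DKO, Hmgn1-/-n2-/-), all of strain C57BL/6, by chromatin immunoprecipitation and sequencing. Lists of peaks were analysed for OCT4, SOX2, NANOG, Klf4 and CTCF in ESCs, and for H3K27ac and H3K27me3 in mouse embryonic fibroblasts (MEFs), with 2 biological replicates per genotype and 28 libraries in all. The labels do not give the number of cell lines or their passage, so the p values measure the spread between these libraries. The comparison asked whether the gain of OCT4, SOX2 and NANOG peaks in DKO ESCs reached genes of differentiation. A peak number depends on the fraction of cells bound, the strength of binding and the depth of the library, and these cannot be told apart in bulk lists.

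The ESC lists held from 4003 (Klf4, WT) to 64634 (CTCF, DKO) peaks, the H3K27ac lists 76968 to 84850 and the H3K27me3 lists 117 to 553. OCT4 had 11140 and 12627 peaks in WT and 26742 and 30864 in DKO, SOX2 10324 and 10222 in WT and 16174 and 17144 in DKO, and NANOG 52307 and 53524 in WT and 62697 and 64486 in DKO. The lowest local background that the peak caller used, which rises with the number of reads and the fragment length, could be solved from the deposited values for 19 libraries. For OCT4 it was 0.924 and 1.31 reads per position in WT and 1.03 and 1.43 in DKO, with overlap between the genotypes, and the part of depth in the peak numbers was not tested. For SOX2 it was 1.5 and 1.56 in WT and 1.74 in DKO replicate 1, and the depth of the NANOG and CTCF libraries is unknown. Within 1 kb of 7 ESC marker genes peaks were called in all 4 libraries at 7 genes for NANOG, 4 for OCT4, 3 for SOX2 and 3 for Klf4, and in no library at Sox2 for OCT4, at Pou5f1 and Zfp42 for SOX2 and at Pou5f1 and Sox2 for Klf4. In MEFs H3K27ac marked 7 of 7 fibroblast genes in all 4 libraries and, among the 7 ESC genes, had peaks at Esrrb in some libraries and at the other 6 in none. Markers of endothelial cells, macrophages and epithelial cells, 2 genes each, had summed H3K27ac peak numbers of 1 to 3, 4 to 6 and 2 per library, beside 94 to 129 over the fibroblast genes. At Hmgn2 itself H3K27ac had 3 and 3 peaks in WT and 0 and 0 in DKO, and at Hmgn1 2 and 2 in WT and 4 and 5 in DKO. The ESC factors had no peak within 1 kb of either gene except 1 NANOG peak at Hmgn2 in WT replicate 2, so the genotype of the ESC libraries was not checked by this measure.

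OCT4, the POU factor at the centre of the pluripotency network, had 11 and 13 peaks near the 9 genes in the WT libraries and 25 and 25 in the DKO libraries. Both DKO libraries exceeded both WT libraries, with means of 12 ± 1.41 and 25 ± 0 (SD, n = 2), a ratio of 2.08 (log2 1.06). Over all protein-coding genes the mean number per gene was 0.821 in WT and 2.15 in DKO, a ratio of 2.62 (log2 1.39), so the ratio near the specifiers was below that over all genes, while the mean number per specifier was 1.33 in WT and 2.78 in DKO. SOX2, its partner HMG box factor, had 10 and 8 peaks in WT and 13 and 13 in DKO, a log2 ratio of 0.53 beside 0.75 over all genes. NANOG, the homeodomain factor, had 50 and 56 peaks in WT and 63 and 65 in DKO, a log2 ratio of 0.27 beside 0.37. In each of the 3 factors the libraries of the genotypes did not overlap, and the ratio near the specifiers was below that over all genes. With 2 libraries per genotype an exact two-sided permutation test cannot give a p below 0.333, and no test was made of these sums. When the lists of each factor were cut to the same number of their highest-ranked peaks, the log2 ratio near the 9 genes was -0.39 for OCT4, 0.08 for SOX2 and -0.08 for NANOG, beside 0.05, 0.03 and 0.07 over all genes.

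**Figure D1:**
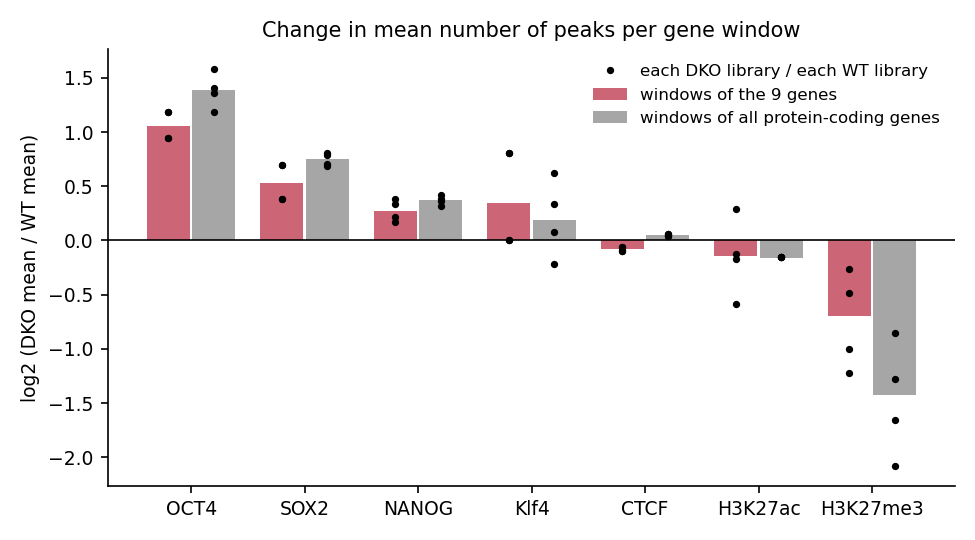
Mean number of peaks per gene window, DKO over WT, as log2 on the vertical axis, for the 9 lineage specifier genes and for all protein-coding genes, by antibody; bars are ratios of means and dots are the ratios of each DKO to each WT library. For OCT4 the ratio of means was 1.06 near the specifiers and 1.39 over all genes, and for H3K27me3 it was -0.70 and -1.43.

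OCT4 peaks were more numerous in DKO at most of the genes. Otx2 had 4 and 5 OCT4 peaks in WT and 9 and 8 in DKO, the highest numbers among the 9 genes, or 4.09 and 7.73 per 100 kb of window on average. Fgf5 had 0 and 0 in WT and 1 and 1 in DKO. Among the endoderm genes Gata4 had 0 and 0 in WT and 2 and 2 in DKO, of which 1 site was common to both DKO libraries and the second lay at a different place in each, and the difference was 0 in a window of 20 kb. Gata6 had 0 and 0 in WT and 1 and 1 in DKO. T had 1 and 0 in WT and 2 and 3 in DKO, and Cdx2 3 and 3 in WT and 4 and 4 in DKO, and in a window of 20 kb the difference of means was 0.5 peaks at each. In these 6 genes both DKO libraries lay above both WT libraries, as they did in 49.5% of all 22367 genes. In the other members the genotypes overlapped, with Eomes at 1 peak in each library, Sox17 at 0 and 1 in WT and 1 and 2 in DKO, and Pax6 at 2 and 3 in WT and 4 and 3 in DKO. Both DKO libraries lay below both WT libraries at 0 of the 9 genes, beside 0.076% of all genes. Per 100 kb of window the WT order was Otx2, Cdx2 (2.82), Pax6 (1.86), Eomes (0.927), Sox17 (0.474) and T (0.463), with Fgf5, Gata4 and Gata6 at 0. Otx2 stood above Cdx2, Cdx2 above Pax6 and Pax6 above Eomes in both WT libraries, whereas Eomes, Sox17 and T overlapped.

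limma, fitted on log2(peaks + 1) over the 12959 genes with a mean of at least 1 OCT4 peak, tested 7 of the 9 members and called 2 of them higher in DKO, with 32.3% of the tested genes called higher, and it called 0 lower (0.0386% of the tested genes). These were Gata4 (log2 change 1.58, adjusted p = 1.1e-06) and Cdx2 (0.32, adjusted p = 6.6e-04), which had 2 peaks more and 1 peak more in DKO. Both had the same number in the libraries of a genotype, so their small p values rest on tied replicates and on the spread borrowed from other genes. Gata4, with 0 peaks in both WT libraries, reached a mean of 1 peak only through its DKO peaks. It could therefore be tested only as a gain. Without either of the DKO libraries the difference of means stayed at 2 peaks for Gata4 and 1 for Cdx2. Gata4 then fell below a mean of 1 peak and was not tested. Otx2, with 4 more peaks on average, was not called. In a window of 20 kb the only member called was Otx2, and with lists cut to equal numbers of peaks Otx2 was called lower in DKO. Over all tested genes 4191 were called higher and 5 lower, and after each library was centred on its mean 1807 were higher and 1618 lower, with Gata4 among the first and Eomes among the second. Eomes had 1 peak in each library, so its call came from the centring alone.

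**Figure D2:**
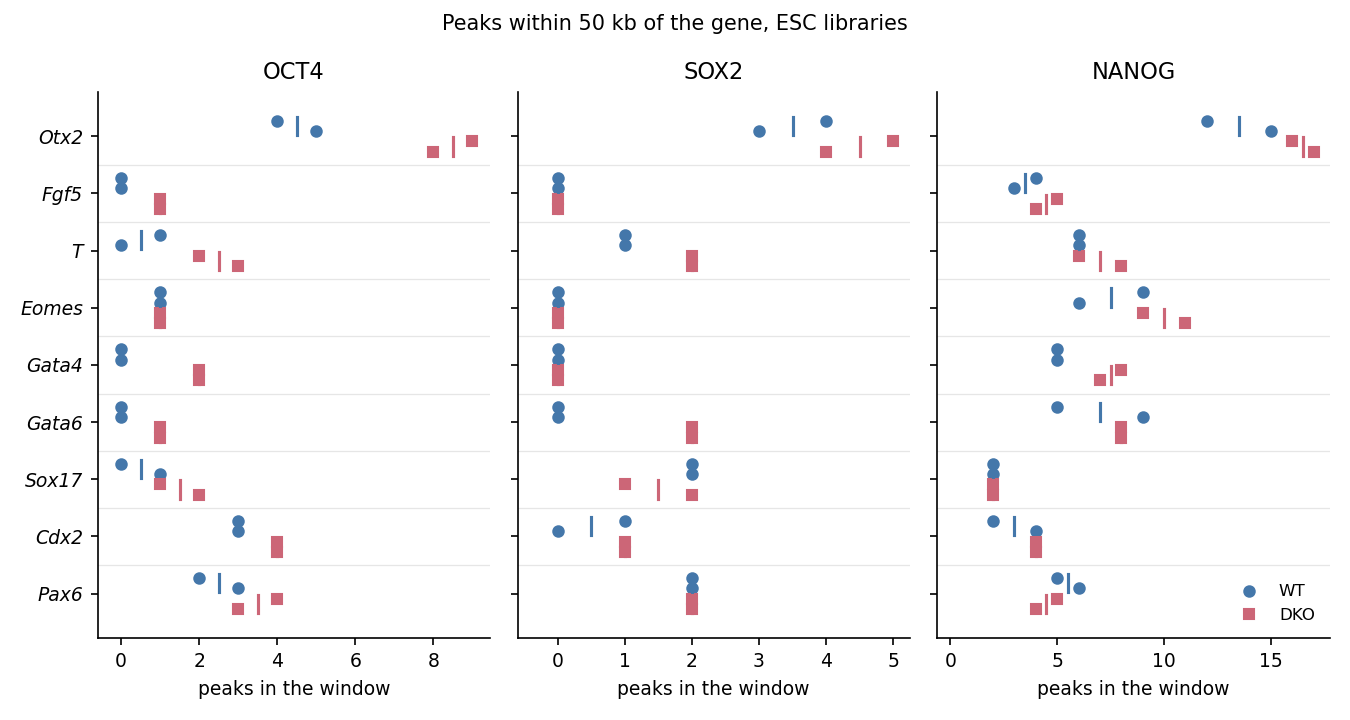
Number of peaks within 50 kb of each of the 9 lineage specifier genes (horizontal axis, in peaks) for OCT4, SOX2 and NANOG in ESCs; each point is 1 of 2 WT or 2 DKO libraries and the vertical lines are the means. OCT4 is higher in both DKO libraries at 6 genes, with Otx2 at 4 and 5 peaks in WT and 9 and 8 in DKO, and NANOG at 2 genes.

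Peaks of the 4 OCT4 libraries that overlapped by at least 1 bp were joined into sites, of which 29 lay near the 9 genes. At 8 of these sites both DKO libraries and no WT library had an OCT4 peak (DKO-only, 27.6%), beside 28.8% of all 35163 OCT4 sites. It was called in all 4 libraries at 9 sites, in another combination at 12 and in the WT libraries alone at 0 (0.188% of all sites). Of the 29 sites 11 were intronic and 16 intergenic, and 1 lay within 1 kb of the start of its gene, 170 bp upstream of Cdx2. The DKO-only sites fell at Otx2 (3 sites), Gata4, T, Gata6, Fgf5 and Cdx2. The 201 bases centred on the summit of 5 of them are shown, 1 for each of 5 genes, because there an OCT4 peak was called in DKO cells alone (NCBIM37, the assembly of mm9, plus strand). Capitals mark exact matches of ATGCAAAT (octamer), CATTGT (SOX), AGGNGGC (CTCF) or GGGNGTGG (KLF) on either strand.
Otx2 chr14:49274228-49274428: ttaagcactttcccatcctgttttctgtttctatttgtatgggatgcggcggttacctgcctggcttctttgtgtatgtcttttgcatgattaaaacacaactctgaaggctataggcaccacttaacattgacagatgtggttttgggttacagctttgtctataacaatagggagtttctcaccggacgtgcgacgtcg
Fgf5 chr5:98684846-98685046: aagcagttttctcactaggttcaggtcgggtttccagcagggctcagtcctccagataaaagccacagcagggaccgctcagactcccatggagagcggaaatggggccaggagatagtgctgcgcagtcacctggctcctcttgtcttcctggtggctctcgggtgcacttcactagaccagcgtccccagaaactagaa
T chr17:8598177-8598377: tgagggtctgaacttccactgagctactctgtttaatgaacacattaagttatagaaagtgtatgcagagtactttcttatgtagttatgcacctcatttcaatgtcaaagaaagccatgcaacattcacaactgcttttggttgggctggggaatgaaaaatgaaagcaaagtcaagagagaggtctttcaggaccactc
Gata4 chr14:63790499-63790699: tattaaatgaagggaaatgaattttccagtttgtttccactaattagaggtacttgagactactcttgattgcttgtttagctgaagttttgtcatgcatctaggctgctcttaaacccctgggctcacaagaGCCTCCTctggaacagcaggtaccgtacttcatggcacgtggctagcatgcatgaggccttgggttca
Cdx2 chr5:148097831-148098031: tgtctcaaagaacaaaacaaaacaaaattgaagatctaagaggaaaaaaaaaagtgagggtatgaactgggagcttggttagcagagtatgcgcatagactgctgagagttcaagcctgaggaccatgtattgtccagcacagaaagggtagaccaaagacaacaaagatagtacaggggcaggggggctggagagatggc
The Gata4 window held a CTCF match and the other 4 windows held no match. Over all 8 DKO-only sites near the specifiers the octamer matched at 0, SOX at 0, CTCF at 2 and KLF at 1, whereas over all 10116 DKO-only OCT4 sites the shares were 12.9%, 18.7%, 11.5% and 8.68%. An exact match is a description of letters in a window, and the octamer and SOX letters can share bases where they adjoin on opposite strands.

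The DKO-only sites were of moderate height. Height is given as fold enrichment, the ratio of the pileup at the summit to the local background, with a median of 10.2 and 9.69 over all peaks of the DKO OCT4 libraries. Downstream of Cdx2 (148097831 to 148098032, 20915 bp from the start) the fold enrichment was 13.8 and 20.1, the highest among the DKO-only sites. The site 29011 bp upstream of T (8598150 to 8598436) had 11.8 and 15.4, and that 12991 bp downstream of the Otx2 start (49273963 to 49274446) had 9.75 and 10.9. The Gata4 site (63790477 to 63790719) had 7.4 and 9.74 and lay in an intron of the neighbour Fdft1, a gene of sterol synthesis, 99930 bp from the start of Gata4. The site in an Fgf5 intron (98684795 to 98685122, 1743 bp downstream of the start) had 3.84 and 5.91, the lowest value of these sites in any library. At Otx2 a second intergenic site (49273245 to 49273748) had 6.14 and 4.72, and an intronic one (49286114 to 49286513) had 4.97 and 5.06. The OCT4 site of Sox17 with the highest mean −log10 q, 24369 bp downstream of its start, was called at 3.62 in WT replicate 2 and at 9.35 and 8.63 in DKO. When lists were cut to equal numbers of peaks, there was 1 DKO-only site near the 9 genes.

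At the 9 OCT4 sites called in all 4 libraries the fold enrichment rose at each of them in DKO, near Otx2 (4 sites), Pax6 and Cdx2 (2 each) and Eomes (1). limma called 85.6% of all 9434 such sites higher and 0.329% lower, and the median log2 change was 0.96 near the specifiers and 0.93 over all. The 201 bases around 4 of these summits are shown because SOX2 was called at the same place and the OCT4 fold enrichment was the highest or second highest of its gene, with no UTR in the window (NCBIM37, plus strand, capitals as above).
Otx2 chr14:49320714-49320914: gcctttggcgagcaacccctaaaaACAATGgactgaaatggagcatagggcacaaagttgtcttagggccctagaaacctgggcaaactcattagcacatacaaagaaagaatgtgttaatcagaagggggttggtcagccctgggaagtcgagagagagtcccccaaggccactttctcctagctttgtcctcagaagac
Otx2 chr14:49282612-49282812: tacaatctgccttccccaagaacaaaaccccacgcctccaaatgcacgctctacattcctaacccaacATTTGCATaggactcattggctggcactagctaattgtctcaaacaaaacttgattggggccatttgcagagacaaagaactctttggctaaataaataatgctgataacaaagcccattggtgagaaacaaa
Pax6 chr2:105517605-105517805: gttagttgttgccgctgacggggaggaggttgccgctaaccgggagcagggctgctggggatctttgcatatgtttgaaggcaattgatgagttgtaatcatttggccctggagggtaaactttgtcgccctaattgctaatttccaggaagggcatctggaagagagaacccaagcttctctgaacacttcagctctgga
Cdx2 chr5:148115884-148116084: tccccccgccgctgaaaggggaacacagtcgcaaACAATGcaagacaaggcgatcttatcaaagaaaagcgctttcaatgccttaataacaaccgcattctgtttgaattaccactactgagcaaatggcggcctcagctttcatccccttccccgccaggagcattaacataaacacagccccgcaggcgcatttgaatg
The Otx2 intron held an octamer match, the upstream Otx2 site and the Cdx2 intron each a SOX match, and the Pax6 intron no match. Among all OCT4 sites called in each library 14.9% held the octamer and 21.3% the SOX letters, and near the specifiers 1 and 2 of 9 did.

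The site 33495 bp upstream of Otx2 (49320448 to 49321118) had an OCT4 fold enrichment of 26.6 and 29.4 in WT and of 82.1 and 99.4 in DKO. The genotypes were far apart, with a log2 change of 1.69 (SE 0.14, adjusted p = 6.6e-23), or 3.23-fold. In the Otx2 intron (49282575 to 49282989) OCT4 had 12.6 and 13.3 in WT and 30.3 and 27.2 in DKO, a log2 change of 1.15 (adjusted p = 2.6e-09). The Pax6 intron (105517274 to 105518120, 8652 bp downstream of the start) had 12.1 and 11.4 in WT and 27.5 and 31.6 in DKO, a log2 change of 1.33 (adjusted p = 2.5e-11). In the Cdx2 intron (148115763 to 148116741) OCT4 was highest in WT, at 37.3 and 38.9, and reached 66.1 and 68.2 in DKO, a log2 change of 0.82. The remaining sites had smaller signals. Examples were the Eomes site 45381 bp upstream (6.01 and 8.88 in WT, 12.2 and 12.3 in DKO) and the Cdx2 site in an intron of Prhoxnb (10.2 and 9.43 in WT, 11.7 and 16.8 in DKO, log2 change 0.51). Because most OCT4 sites were higher in DKO, the fit was repeated with each library centred on its own median over all shared OCT4 sites. On that scale 1 of the 9 was called higher, the upstream Otx2 site at 0.73 (adjusted p = 3.8e-06), beside 20.1% of all sites, and the other 8 lay between -0.45 and 0.36.

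**Figure D3:**
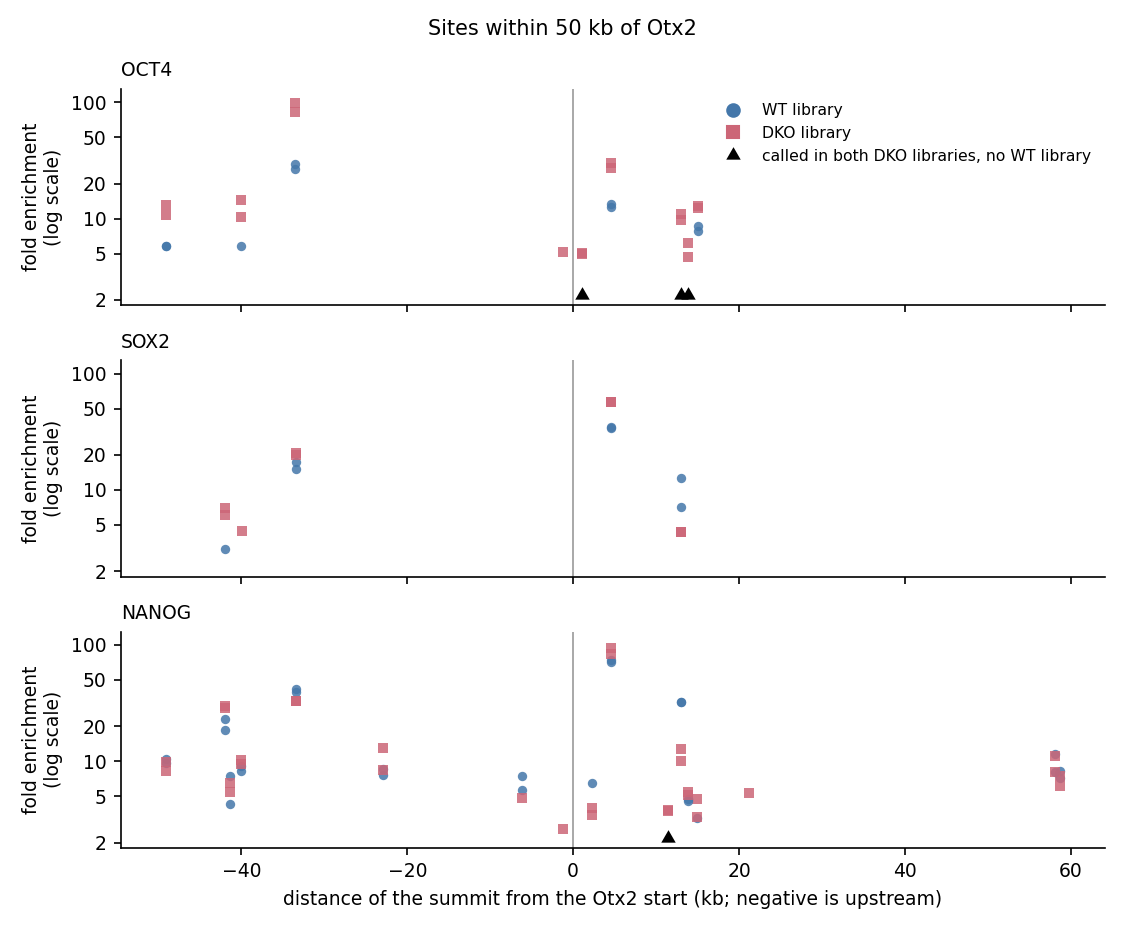
Fold enrichment (log axis) of OCT4, SOX2 and NANOG at sites around Otx2 against the distance from its start in kb, with circles for WT and squares for DKO libraries; triangles mark sites called in both DKO libraries and no WT library. OCT4 goes from 26.6 and 29.4 in WT to 82.1 and 99.4 in DKO at the site 33.5 kb upstream, whereas NANOG goes from 32.1 and 32.2 to 12.8 and 10 at the site 13 kb downstream.

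SOX2 had peaks near 6 of the 9 genes and none near Fgf5, Gata4 and Eomes in any library, while 62.9% of all genes had a SOX2 peak in at least 1 library. Gata6 had 0 and 0 SOX2 peaks in WT and 2 and 2 in DKO, and T had 1 and 1 in WT and 2 and 2 in DKO, with a difference of means of 2 and 0.5 peaks in a window of 20 kb. In these 2 genes the genotypes did not overlap, beside 20.6% of all genes in this direction, and in the reverse direction there were 0 members (0.322% of all genes). limma called both of these genes and 0 lower among the 5 members tested (14.8% of tested genes were called higher and 0.356% lower), Gata6 with a log2 change of 1.58 (adjusted p = 3.0e-08) and T with 0.58 (adjusted p = 1.7e-05), again on tied replicates. Gata6, with 0 peaks in both WT libraries, reached a mean of 1 peak only through its DKO peaks. It could therefore be tested only as a gain. After centring on the mean of each library Gata6 was called higher and Pax6 lower, and over all genes the split went from 1368 higher and 33 lower to 530 higher and 2540 lower. Pax6 had 2 peaks in each library, so its call came from the centring alone. Without either DKO library Gata6 fell below a mean of 1 peak and was not tested. Otx2 had 4 and 3 SOX2 peaks in WT and 5 and 4 in DKO, Sox17 2 and 2 in WT and 1 and 2 in DKO, Cdx2 1 and 0 in WT and 1 and 1 in DKO, and Pax6 2 in each library. Per 100 kb the WT order was Otx2 (3.18), Sox17 (1.9), Pax6 (1.49), T (0.925) and Cdx2 (0.47), and T and Cdx2 overlapped.

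Of the 16 SOX2 sites near the specifiers 1 was DKO-only (6.25%, beside 16.6% of all 20747 SOX2 sites) and 0 were WT-only (0.588% of all). It lay 12808 bp upstream of Gata6 with a fold enrichment of 3.22 and 5.72, at the place where OCT4 was DKO-only as well (6.99 and 7.71). NANOG was called there in all 4 libraries and rose from 6.28 and 5.69 in WT to 11.9 and 10.1 in DKO (log2 change 0.88, adjusted p = 0.0112). Klf4 was also called there in each library, at 9.4 and 6.89 in WT and 4.25 and 6.24 in DKO, with the DKO values below the WT values and no call (adjusted p = 0.182). It was the one place near the 9 genes where OCT4 and SOX2 were both DKO-only. With a q of at most 0.0001, summits within 100 bp or equal numbers of top peaks, 0 SOX2 sites near these genes were DKO-only.

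At the 7 SOX2 sites called in each library the log2 change was positive at 5 and negative at 2. The fold enrichment was called higher by limma at 3 and lower at 1, beside 33% and 4.47% of all 7694 such sites. The Otx2 intron went from 34.8 and 33.8 in WT to 57 and 56.7 in DKO (log2 change 0.73, adjusted p = 4.4e-05). The site 4277 bp upstream of T went from 8.64 and 5.09 to 13.5 and 14.2 (1.06, adjusted p = 0.004), and the Pax6 intron from 2.93 and 5.1 to 12.1 and 11.5 (1.61, adjusted p = 2.7e-04). All 3 had higher values in both DKO libraries. The site 12995 bp downstream of the Otx2 start fell from 7.16 and 12.7 to 4.38 and 4.32 (-1.13, adjusted p = 0.0045), and this call was lost without WT replicate 2, the higher of the WT values. OCT4 was DKO-only at the same place. The median change of all SOX2 sites was 0.35. After each library was centred on its own median over all shared SOX2 sites the calls were 2 higher, the Otx2 intron (0.33) and the Pax6 intron (1.21), and 2 lower, the downstream Otx2 site (-1.53) and the Pax6 site over a UTR (-0.69), beside 12.5% and 14.6% of all sites. At the upstream Otx2 site, where OCT4 rose 3.23-fold, SOX2 had 15.1 and 17.2 in WT and 20.7 and 20.1 in DKO and was not called (0.34, adjusted p = 0.131). The SOX2 site of Sox17 with the highest mean −log10 q, 47917 bp upstream, had 5.75 and 4.66 in WT and 6.3 and 4.83 in DKO. Its other SOX2 site, 48275 bp downstream of the start, had 5.55 and 7.63 in WT, was not called in DKO replicate 1 and had 3.5 in DKO replicate 2. In the Cdx2 intron SOX2 was called in 3 libraries, at 4.46 in WT replicate 1 and 7 and 6.56 in DKO.

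NANOG had the most peaks near the specifiers, with at least 1 near each gene in each library. Otx2 had 12 and 15 NANOG peaks in WT and 16 and 17 in DKO, and Gata4 had 5 and 5 in WT and 8 and 7 in DKO, with a difference of means of 3 and 1 peaks in a window of 20 kb. In these 2 genes both DKO libraries exceeded both WT libraries, as in 37.1% of all genes, and they lay below at 0 members (1.78% of all genes). Eomes had 9 and 6 in WT and 9 and 11 in DKO, and Sox17 2 in each library. limma tested 9 members and called 0 of them (9.11% of the tested genes were called higher and 0.944% lower); 1 member passed an unadjusted p of 0.05, and the lowest adjusted p was 0.0969. Per 100 kb the WT means ran from 12.3 (Otx2) and 6.95 (Eomes) down to 1.9 (Sox17), with T, Gata6, Pax6, Gata4, Fgf5 and Cdx2 between them in that order. T, Gata6 and Pax6 overlapped in turn, as did Gata4, Fgf5, Cdx2 and Sox17. Of the 76 NANOG sites 3 were DKO-only (3.95%, beside 9.44% of all 79921 sites), at Otx2 (3.71 and 3.8), T (5.87 and 6.26) and 1239 bp upstream of the Fgf5 start (7.18 and 5.67), and 0 were WT-only (2.19% of all).

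At the 41 NANOG sites called in each library limma called the fold enrichment higher at 6 and lower at 6, beside 15.7% and 14.1% of all 39762 such sites. The log2 change was positive at 18 and negative at 23, with a median of -0.04 near the specifiers and 0.02 over all. Without DKO replicate 1, and likewise without DKO replicate 2, the number of higher calls was 3. The largest rise was in the Pax6 intron, from 20 and 21.2 in WT to 46.3 and 43.9 in DKO (log2 change 1.13, adjusted p = 4.6e-05), at the place where OCT4 and SOX2 rose too. NANOG also rose 4268 bp upstream of T, from 14.5 and 13.6 to 20 and 22.6 (0.60, adjusted p = 0.0137), and in the Otx2 intron, its highest site near these genes, from 71.8 and 74.2 to 94.2 and 84 (0.28, adjusted p = 0.0271). The Otx2 intron and the Pax6 intron were the 2 places where each of the 3 factors was called higher before centring. With each library centred on its own median OCT4 was called at neither of them (adjusted p = 0.344 and 0.0595), SOX2 was called higher at both, and NANOG was called higher at the Pax6 intron and not at the Otx2 intron (0.24, adjusted p = 0.0597). Over the 41 NANOG sites centring gave 5 higher and 7 lower, beside 14% and 16% of all such sites. At the upstream Otx2 site, where OCT4 rose, NANOG had 39.1 and 41.6 in WT and 32.8 and 32.9 in DKO, lower in both DKO libraries and not called (-0.30, adjusted p = 0.0671), whereas after centring it was called lower (-0.34, adjusted p = 0.0376). A neighbouring site 4794 bp upstream of T went from 3.29 and 2.95 to 4.92 and 5.69, and a site 41971 bp upstream of Otx2 from 18.4 and 23.2 to 29.9 and 28.8.

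The 6 NANOG sites called lower by limma lay at Otx2, Sox17, Gata4, Fgf5 and Pax6 (2 sites). The site 12972 bp downstream of the Otx2 start went from 32.1 and 32.2 in WT to 12.8 and 10 in DKO (log2 change -1.51, SE 0.16, adjusted p = 4.4e-05). The site 48299 bp downstream of the Sox17 start went from 26 and 25 to 9.2 and 9.21 (-1.47, adjusted p = 5.6e-05). Both DKO libraries were far below both WT libraries at each. The Fgf5 intron went from 29.5 and 21.3 to 11.4 and 10.3 (-1.21, adjusted p = 4.5e-04), and the Fdft1 intron in the Gata4 window from 14.5 and 12.4 to 4.95 and 6.73 (-1.22, adjusted p = 0.00199). At Pax6 the site over a UTR, 22496 bp downstream of the start, went from 31.4 and 37 to 22.6 and 19.5 (-0.70, adjusted p = 0.00292), and one 47824 bp upstream from 12.7 and 9.48 to 8.51 and 4.37 (-0.85, adjusted p = 0.0473). The NANOG sites with the highest mean −log10 q of Cdx2, Eomes, Gata6 and Sox17 were not called, with 23.8 and 18.5 in WT and 21.4 and 26.3 in DKO in the Cdx2 intron, and 13.6 and 19 in WT and 15.5 and 13.7 in DKO in an Eomes intron. In a Gata6 intron NANOG had 14.2 and 18.1 in WT and 13.7 and 11.6 in DKO, and 48001 bp upstream of Sox17 it had 20 and 18.5 in WT and 14.8 and 16.2 in DKO.

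Of the 8 places where OCT4 was DKO-only, 5 overlapped a NANOG site called in all 4 libraries, beside 4854 of all 10116 DKO-only OCT4 sites. limma called NANOG lower at 3 of these 5 (the downstream Otx2 site, Fgf5 and Gata4), higher at 1 (Gata6) and neither at 1 (Otx2, log2 change 0.17). The median log2 change over these 5 sites was -1.21. Over all 4837 NANOG sites that overlapped a DKO-only OCT4 site the median was 0.04, with 14.9% called lower and 18.7% higher. At the 6 NANOG sites that met an OCT4 site called in each library the median was 0.02, and at the 28 that met no OCT4 site it was -0.06. This grouping was chosen after the values were seen and no test was made of it.

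**Figure D4:**
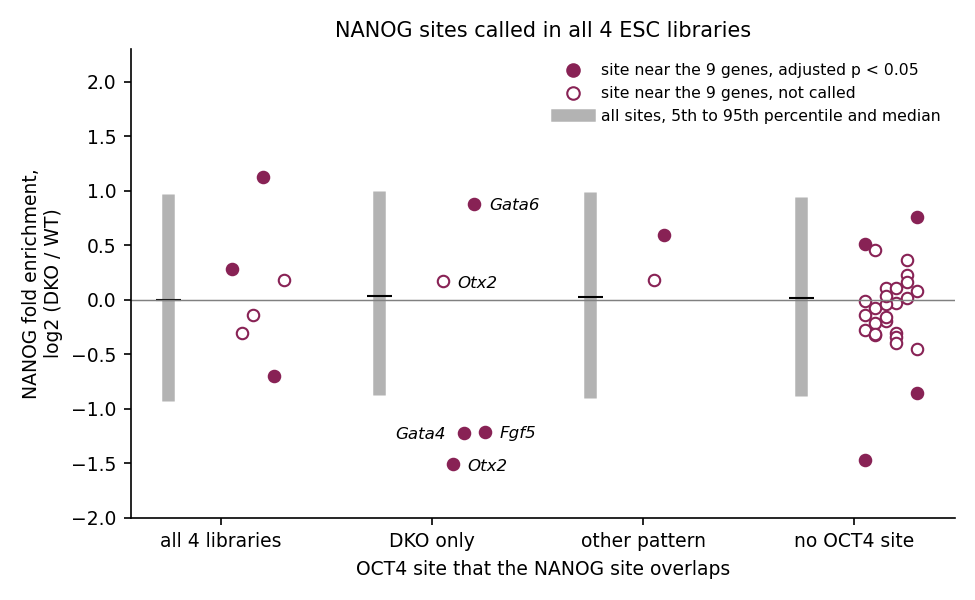
Log2 change of NANOG fold enrichment (DKO over WT, vertical axis) at the 41 sites called in all 4 libraries near the 9 genes, grouped by the OCT4 site at the same place; filled points were called by limma, and the grey bars give percentiles 5 to 95 over all such sites, with the median as a line. NANOG was called lower at 3 of 5 sites with a DKO-only OCT4 peak, at Otx2, Fgf5 and Gata4.

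Klf4, the zinc finger reprogramming factor, had 7 and 4 peaks near the 9 genes in WT and 7 and 7 in DKO, with peaks near Otx2, Gata4, Gata6, Eomes, Sox17 and Pax6. Of all genes 48.5% had a Klf4 peak in at least 1 library. In none of the 9 genes did the genotypes separate (4.4% of all genes were higher and 1.83% lower). limma called 0 of the 4 genes tested, beside 3.67% called higher and 1.49% lower, with 0 at an unadjusted p of 0.05. At the 4 sites called in each library it called 0, beside 1.86% higher and 2.94% lower, with 1 lower at an unadjusted p of 0.05, and the lowest adjusted p was 0.182, at the Gata6 site described above. Of the 9 Klf4 sites 0 were DKO-only (6.1% of all Klf4 sites) and 0 WT-only (3.18%). At the upstream Otx2 site Klf4 had 10 and 7.27 in WT and 12 and 10.1 in DKO.

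CTCF, the zinc finger protein that sets chromatin loops, had 47 and 46 peaks in WT and 44 and 44 in DKO, a log2 ratio of -0.08 near the specifiers and 0.05 over all genes. Fgf5 had 3 and 2 CTCF peaks in WT and 1 and 1 in DKO and was the one gene whose genotypes did not overlap, in a direction seen in 3.81% of all genes, while 12.6% of all genes were higher without overlap. limma called 0 of the 9 members (6.59% of tested genes were called higher and 2.51% lower), with 1 lower at an unadjusted p of 0.05. Of 50 CTCF sites 42 were called in each library and 1 was WT-only, 41481 bp upstream of Fgf5 at 5.24 and 4.85, beside 1.31% of all CTCF sites, and 0 were DKO-only (2.89% of all). Among the 42 shared sites the log2 change was positive at 24 and negative at 18. Of these sites 9 were called higher and 10 lower by limma, beside 24.7% and 22.5% of all such sites, with fewer calls in each direction without WT replicate 1. With each library centred on its own median 6 were called higher and 12 lower, beside 22.6% and 25.2% of all. The site 29247 bp downstream of the T start went from 13 and 12.6 in WT to 30.5 and 31.3 in DKO (log2 change 1.27, adjusted p = 2.4e-04). A NANOG DKO-only site (8656463 to 8656723) lay at the same place (8656344 to 8656736). Near Cdx2 a site 13945 bp downstream of the start fell from 52.7 and 49.1 to 25 and 24.7 (-1.04, adjusted p = 2.0e-04), while its neighbour 12986 bp downstream rose from 16.6 and 16.5 to 27 and 31.8 (0.83, adjusted p = 0.00142). A site 1174 bp upstream of Pax6 fell from 10 and 8.23 to 3.46 and 4.73 (-1.17, adjusted p = 0.0054).

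In MEFs H3K27ac had 24 and 18 peaks near the 9 genes in WT and 22 and 16 in DKO, a log2 ratio of -0.14 beside -0.16 over all genes. The ratio was 0.08 without WT replicate 1 and 0.07 without DKO replicate 2, so its sign rests on single libraries. H3K27ac was scarce at the specifiers, with a mean of 2.33 peaks per gene in WT beside 8.21 over all genes. Otx2, Sox17 and Pax6 had 0 peaks in all libraries, while 81% of all genes had a peak in at least 1 library. The Gata4 window held the most (12 and 10 in WT, 10 and 9 in DKO), in and next to Fdft1 and none in Gata4 itself. Gata6 was the gene with H3K27ac at its own start, where the fold enrichment was 12.2 and 11.7 in WT and 8.17 and 9.14 in DKO, lower in both DKO libraries and not called (adjusted p = 0.213). No gene had genotypes that did not overlap (6.03% of all genes were higher and 23% lower). limma called 0 of the 4 members tested (0.485% higher and 1.51% lower over all tested genes), with 0 at an unadjusted p of 0.05. Of the 27 H3K27ac sites 0 were DKO-only and 0 WT-only, beside 4.4% and 5.83% of all sites. At the 10 called in each library the log2 change was positive at 5 and negative at 5. Among them limma called 0 lower (5.52% of all such sites) and 1 higher, in an intron of Fdft1, from 7.11 and 8.3 to 12.4 and 13.2 (log2 change 0.74, adjusted p = 0.0475), beside 2.76% of all. Without any 1 of the 4 libraries that call was lost.

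H3K27me3 had 7 and 6 peaks near the 9 genes in WT and 5 and 3 in DKO, or 6.5 ± 0.707 and 4 ± 1.41 (SD, n = 2). Relative to the average gene these windows were rich in the mark, with 10.4 and 12 times as many peaks per gene in WT and 18.1 and 18.8 times in DKO. These ratios rest on 3 to 7 peaks per library. The log2 ratio of DKO to WT was -0.70 near the specifiers and -1.43 over all genes, and with lists cut to equal numbers of peaks it was 0.74 and -0.06. Cdx2 had 3 and 4 peaks in WT and 0 and 0 in DKO and was the one member whose genotypes did not overlap, in a direction seen in 1.26% of all genes, and 0 members were higher without overlap (0.0492% of all genes). limma gave Cdx2 a log2 change of -2.16 (adjusted p = 0.0566) and called 0 of the 3 members tested, with 1 lower at an unadjusted p of 0.05, while 2.09% of the 335 tested genes were called lower. With either WT library left out, with a pseudocount of 0.5 or with no filter Cdx2 was called. Its peaks made 6 sites, 2 over its UTR, 1 in its intron, 1 intergenic 7659 bp upstream, 1 in an intron of Prhoxnb, and 1 in an intron of Pdx1, 36565 bp downstream. The last of these was the 1 WT-only site (148082121 to 148082359, 7.07 and 4.77), beside 5.52% of all sites, and 0 sites were DKO-only (0.468% of all). The other 19 of the 20 H3K27me3 sites (95%) were each called in a single library, as were 85.9% of all 1068 sites, so replicates seldom called the same place. Otx2 had its peaks in WT replicate 1 and DKO replicate 1, T in DKO replicate 2, and Fgf5, Gata6 and Sox17 had none.

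**Figure D5:**
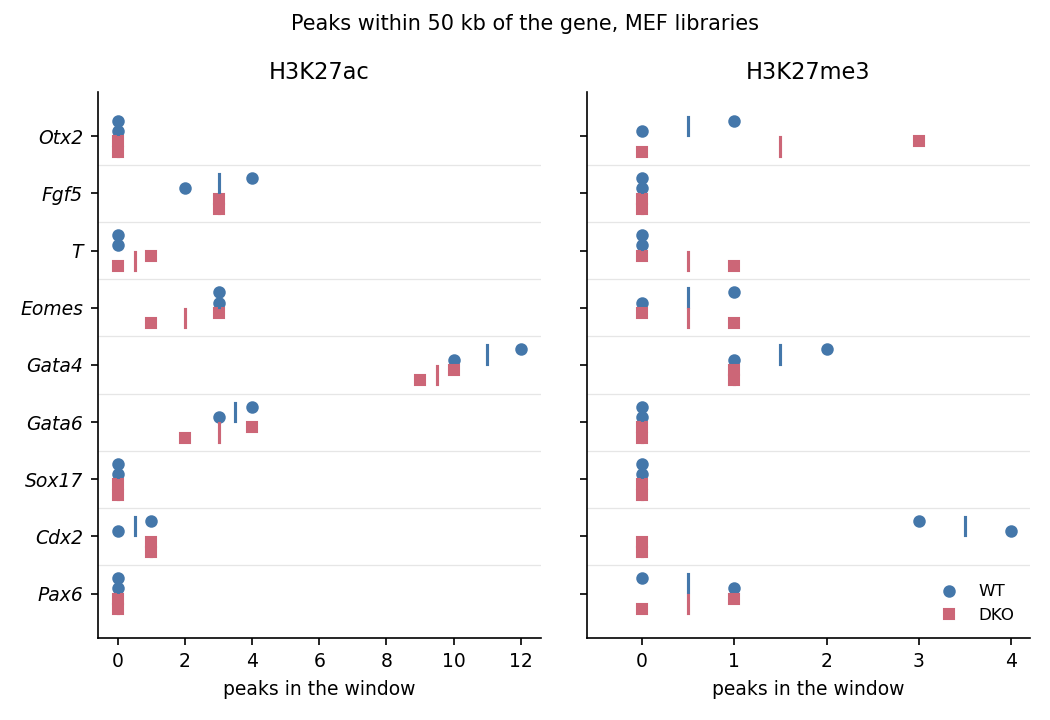
Number of H3K27ac and H3K27me3 peaks within 50 kb of each of the 9 genes in MEFs (axis in peaks); each point is 1 of 2 WT or 2 DKO libraries. Cdx2 has 3 and 4 H3K27me3 peaks in WT and 0 in DKO, and H3K27ac at Gata4 has 12 and 10 in WT and 10 and 9 in DKO, in the region of Fdft1.

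A list of 23 further lineage genes and a list of 12 pluripotency genes were read from the same fits, for comparison with the 9 specifiers. For OCT4 17 of the 23 lineage genes and 10 of the 12 pluripotency genes had both DKO libraries above both WT libraries, beside 49.5% of all genes, and the median difference was 1.5 and 4 peaks per gene, beside 1 for the 9 specifiers and 1 over all genes. limma called 6 of the 18 lineage genes tested, Nodal, Mesp1, Sox7, Gata3, Tead4 and Hand1, and 4 of the 12 pluripotency genes, Sox2, Klf2, Esrrb and Prdm14, all higher, beside 32.3% of all tested genes. Mesp1, Gata3 and Hand1 had 0 peaks in both WT libraries and reached a mean of 1 peak only through DKO. They could be tested only as gains. Nodal, Sox7, Gata3, Tead4 and Hand1 had tied replicates in each genotype. The largest differences among lineage genes were those of Gsc, an organizer homeobox gene (2 and 1 in WT, 6 and 7 in DKO), Dnmt3b, a DNA methyltransferase of the epiblast (1 and 2, then 6 and 5), and Wnt3, a ligand of the primitive streak (2 and 1, then 4 and 6). Among the pluripotency genes Prdm14 had the largest (2 and 2 in WT, 8 and 11 in DKO), followed by Sox2 (3 and 3, then 7 and 9), Nanog (3 and 4, then 7 and 10) and Esrrb (5 and 6, then 10 and 11), which tied at 5 peaks. For SOX2 10 of the 23 and 6 of the 12 were higher without overlap, beside 20.6% of all genes, and limma called 5 of the 14 lineage genes tested (Nodal, Foxa2, Wnt3, Gata3 and Tead4) and, of the 12 pluripotency genes, Tbx3, beside 14.8% of all tested genes. Foxa2, with 0 SOX2 peaks in both WT libraries, could be tested only as a gain, and the other genes called had tied replicates. For NANOG 8 of the 23 were higher and 1 lower and 6 of the 12 were higher, beside 37.1% and 1.78% of all genes, and limma called Nodal and Tfap2c of 22 tested and, of the 12 pluripotency genes, Nr0b1, beside 9.11% of all tested genes. For MEF H3K27ac 7 of the 23 lineage genes and 5 of the 12 pluripotency genes were lower without overlap, beside 23% of all genes, and 1 lineage gene, Zic1, was higher (3 and 3 in WT, 5 and 6 in DKO), beside 6.03%. limma called 2 of the 18 lineage genes tested lower, Gsc (8 and 7 in WT, 1 and 1 in DKO) and Elf5 (5 and 5 in WT, 2 and 2 in DKO), beside 1.51% of all tested genes. With a replicate block 0 genes were called lower for H3K27ac, so both calls were lost. Among the same 23 genes Klf4 had 2 higher and 1 lower without overlap (4.4% and 1.83% of all genes) and CTCF 2 higher and 0 lower (12.6% and 3.81%), and of the 12 pluripotency genes limma called Dppa3 higher for CTCF (12 and 12 in WT, 14 and 14 in DKO), beside 6.59% of all tested genes. For Klf4 2 of the 12 pluripotency genes, Dppa3 (5 and 4 in WT, 2 and 2 in DKO) and Prdm14 (7 and 6, then 5 and 5), were lower without overlap and 0 higher. For H3K27me3 2 of the 23 lineage genes were lower without overlap, Lhx1 and Gata3, beside 1.26% of all genes, and the 12 pluripotency genes had no peak.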

How the data were processed

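Peak lists from ChIP-seq of ESCs (5 antibodies) and MEFs (2 antibodies) were used, 28 libraries, 4 per antibody, grouped by the genotype in the labels. According to the submitters' processing notes and the methods of the study, reads were made with bcl2fastq 1.8.4, trimmed with cutadapt 1.16, mapped to mm9 with BWA, stripped of duplicates and blacklisted reads, and peaks were called for each library against input with MACS2 2.1.1.20160309. Fold enrichment, the ratio of pileup to local background at the summit, is as deposited by the authors. The −log10 p and −log10 q values are those of the authors' caller, and the deposited score is a multiple of −log10 q; each deposited peak had a −log10 q of at least 2. The lists hold no reads, so precision is given by the spread of 2 replicates.

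Analyses were run in Python 3.11.15 (pandas 2.3.3, numpy 2.4.6, and pysam 0.24.0 for sequences). Genes were the gene bodies of GENCODE vM1 with 50 kb on each side; genes with a mean of at least 1 peak were tested with limma 3.58.1 in R 4.3.3 (moderated test with a trended prior) on log2(peaks + 1), and sites called in all 4 libraries on log2 fold enrichment, each over all features of the antibody with Benjamini-Hochberg adjustment at 0.05. The fits were tested on simulated data. For genes, 4-fold changes were called at 29.5% of 200 changed genes for OCT4 and 18.5% for NANOG (12751 and 18864 genes). For sites the size was set separately, on the log2 scale, and 81.5% and 33.5% of 200 changed sites were called (9434 and 39762 sites). H3K27me3 sites were not fitted, since 8 were called in all 4 libraries. Alternatives were another pseudocount, no filter, centring (each library on its mean over genes or its median over shared sites), a stricter q, equal numbers of top peaks, a window of 20 kb, summits within 100 bp, a replicate block, each library left out, and, chosen after seeing the data, a variance no lower than the trend.

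The 9 genes, the gene lists and the tests were chosen with earlier results of these data known. Named were the 9 members with a difference where the genotypes did not overlap or limma called it, the listed genes called by limma or among the 3 with the largest difference without overlap (given for OCT4), the most alike gene of each member, and the site of each member with the highest mean −log10 q for OCT4, SOX2 and NANOG; other sites were named after their values were seen. Sox1 of the list of lineage genes was not analysed here.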

Additional observations from a re-analysis of the deposited data

How the results depend on the processing

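With lists cut to the same number of top peaks the log2 ratio near the 9 genes was -0.39 for OCT4, 0.08 for SOX2, -0.08 for NANOG and 0.74 for H3K27me3, Otx2 had a difference of -1 OCT4 peaks and Gata4 of -0.5 NANOG peaks. There limma called 0 members higher and 1 lower for OCT4 and 0 higher and 1 lower for SOX2, WT-only sites numbered 1 for OCT4, 1 for SOX2, 1 for NANOG and 0 for H3K27me3, and DKO-only sites 1 for OCT4, 0 for SOX2 and 1 for NANOG. Centring left 1 member higher and 1 lower for OCT4 and 1 higher and 1 lower for SOX2, and at shared sites 1 higher for OCT4 and 2 lower for SOX2. The members called lower, Eomes and Pax6, had the same number of peaks in each library. With no filter limma called 4 members higher for OCT4 and 1 lower for H3K27me3, as it did for H3K27me3 with a pseudocount of 0.5 and with a q of at most 0.0001. The stricter q gave 1 member higher for SOX2, 0 DKO-only SOX2 sites, a CTCF log2 ratio of -0.05, 1 WT-only H3K27ac site and 0 WT-only H3K27me3 sites. A window of 20 kb gave 1 member higher for OCT4, 1 for SOX2, a Klf4 log2 ratio of 1.0, and 0 WT-only sites for CTCF and for H3K27me3. Summits within 100 bp gave 0 DKO-only SOX2 sites and 1 WT-only and 1 DKO-only H3K27ac site. The cause of these shifts was not tested.

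Leaving out each library in turn, with a lone library assumed to vary like the pair of the other genotype, gave 1 to 2 members called higher for OCT4, 1 to 2 higher and 0 to 1 lower for SOX2, 0 to 2 higher and 0 to 1 lower for NANOG, 0 to 1 lower for Klf4, 0 to 1 higher and 0 to 3 lower for CTCF, 0 to 1 in each direction for H3K27ac and 0 to 2 lower for H3K27me3. WT-only sites ranged from 0 to 1 for OCT4, SOX2 and Klf4, 1 to 2 for NANOG, 1 to 3 for CTCF, 0 to 3 for H3K27ac and 1 to 7 for H3K27me3. DKO-only sites ranged from 1 to 4 for SOX2, 5 to 10 for NANOG, 0 to 2 for Klf4, 0 to 1 for CTCF, and 0 to 5 for H3K27ac and for H3K27me3, since a site then needs fewer libraries. Shared sites called numbered 0 to 2 lower for SOX2, 3 to 5 higher for NANOG, 5 to 7 higher and 6 to 7 lower for CTCF, and 0 higher and 0 to 1 lower for H3K27ac, whose log2 ratio ran from -0.39 to 0.08.

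Replicates with the same number did not deviate together (r from -0.07 to 0.02 over gene windows and -0.00 to 0.02 over shared sites). With a replicate block limma called 2 members higher for OCT4 and 2 for SOX2, as without it, and 8 higher and 9 lower shared CTCF sites, while over all genes the calls went from 4191 to 2776 higher for OCT4, 1727 to 339 for NANOG, 261 to 0 lower for H3K27ac and 7 to 0 lower for H3K27me3. A variance no lower than the trend, chosen after seeing the data, gave 1134 higher for NANOG and 112 lower for H3K27ac over all genes and changed no count of members. Centring turned the split over all genes from 209 higher and 85 lower to 40 and 71 for Klf4, and from 84 and 261 to 43 and 53 for H3K27ac, and the split over H3K27ac shared sites from 1165 and 2333 to 1651 and 1546. Of 441 peak numbers of single genes under the alternatives 351 moved by less than the spread of the replicates. The H3K27me3 lists were the shortest, with 117 to 553 peaks per library.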

Other observations

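The gene whose peak numbers over the 28 libraries were most like those of each specifier, as Pearson r of log2(peaks + 1) centred on the mean of each library, was Ly6f for Fgf5 (0.81), Kcnc2 for Otx2 (0.96), Ndor1 for Gata4 (0.90), Hsdl1 for Gata6 (0.83), Pex5l for T (0.96), Morc4 for Eomes (0.80), C86695 for Sox17 (0.94), Fev for Cdx2 (0.92) and Gm9925 for Pax6 (0.96). The 28 libraries are 4 of each of 7 antibodies, so they are not independent points, and these values carry no test.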
